A study of Drosophila melanogaster with 2 samples.

Results

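The summits described here are the binding maxima of a GFP fusion that lay in the core of a promoter with no divergent neighbour. A summit was kept when it lay at most 100 bp from the nearest start site of a protein-coding gene in Ensembl BDGP6. It was left out when a pair of divergent protein-coding starts, a minus-strand start at a lower coordinate than the plus-strand start of another gene, lay within 500 bp. The rule used positions and no measured value. The authors' list of reproducible peaks on build dm6, thresholded by irreproducible discovery rate (IDR), held 5703 summits, and 1031 of these were core summits (18.1%, 95% Wilson interval 17.1 to 19.1). A further 324 lay as close to a start but beside a divergent pair, 1377 lay over 100 and up to 500 bp from a start, and 2971 lay farther away.

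Chromatin had been immunoprecipitated with an antibody to GFP from whole prepupae of a transgenic Drosophila melanogaster line, pooled males and females of unknown age, and sequenced. The line stably expresses the product of CG6854 with GFP at its C terminus, and the labels name CTPsyn, the enzyme that makes CTP from UTP, as the target. CG6854 is an older name of both Ctps and the overlapping gene CG45071 in RefSeq. There were 2 biological replicates, numbered 2 and 3, of 1 group, so there was no other condition to compare and no test between groups. Whole animals were used, so binding in few cells and weak binding in many cannot be told apart. Control DNA libraries were not analysed here. Each replicate list and the pooled list held 30000 relaxed peaks, and depth per library is unknown. The signal of a peak is the authors' score, on a scale not stated, and is compared only within a list.

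A core promoter is the stretch around the start of transcription on which RNA polymerase II and its general factors assemble. In Drosophila it is marked by several sequence elements. The TATA box, the initiator and the downstream promoter element (DPE) sit at fixed places near the start and are typical of regulated, developmental genes. The DNA replication-related element (DRE), bound by Dref, and Motifs 1, 6 and 7 are typical of housekeeping genes. Ribosomal protein genes carry a pyrimidine-rich TCT initiator, and GAGA repeats are bound by GAGA factor, encoded by Trl, which keeps promoters open.

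Promoters on which the results below turn are shown from 100 bases before the start to 30 bases from it, with the start as base 1, in the direction of the gene, from the RefSeq genome of Release 6. Capitals mark the element named, and in Ugalt, the strongest core summit, the 11 bases centred on the summit. Among the arms from which sequence is shown, the strongest core summit with a DRE is at RpS10b (chrX:19597940-19598069, plus strand), that with Motif 1 at RpL37A (chr2L:5070900-5071029, plus strand) and that with Motif 6 at RpL24 (chr2L:13395102-13395231, minus strand). They stand for promoters with elements at which summits tended to lie downstream of the start, as they also did with an AP-1 site. The promoters of wnd with a GAGA repeat (chr3L:19633067-19633196, minus strand) and of ttk with an initiator (chr3R:31725680-31725809, plus strand) stand for those at which summits tended to lie upstream. The gene wnd encodes a kinase upstream of Jun kinase, and ttk a BTB zinc finger repressor. Those of MFS18 with a TATA box (chr2L:4448606-4448735, minus strand), puc with an AP-1 site (chr3R:8106388-8106517, plus strand), RpS7 with a TCT initiator (chr3R:30208913-30209042, minus strand) and Ugalt (chrX:2703823-2703952, minus strand) complete the set.
Ugalt, summit: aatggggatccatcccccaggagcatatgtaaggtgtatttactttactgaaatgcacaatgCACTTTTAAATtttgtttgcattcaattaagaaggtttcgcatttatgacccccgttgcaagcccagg
RpS10b, DRE: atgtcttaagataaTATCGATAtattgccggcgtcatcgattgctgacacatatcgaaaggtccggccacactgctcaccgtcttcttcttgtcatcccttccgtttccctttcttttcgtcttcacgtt
RpL37A, Motif 1: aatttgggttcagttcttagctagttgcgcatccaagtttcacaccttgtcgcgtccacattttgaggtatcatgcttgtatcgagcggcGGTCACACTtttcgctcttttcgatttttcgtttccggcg
RpL24, Motif 6: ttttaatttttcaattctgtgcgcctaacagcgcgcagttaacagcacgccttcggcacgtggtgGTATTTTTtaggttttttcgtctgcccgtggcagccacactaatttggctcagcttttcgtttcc
RpS7, TCT initiator: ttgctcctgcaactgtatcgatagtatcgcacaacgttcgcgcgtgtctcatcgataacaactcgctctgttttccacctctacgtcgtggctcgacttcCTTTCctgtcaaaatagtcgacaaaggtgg
wnd, GAGA: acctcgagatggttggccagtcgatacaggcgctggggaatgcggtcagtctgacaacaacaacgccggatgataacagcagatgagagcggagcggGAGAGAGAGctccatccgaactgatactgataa
ttk, initiator: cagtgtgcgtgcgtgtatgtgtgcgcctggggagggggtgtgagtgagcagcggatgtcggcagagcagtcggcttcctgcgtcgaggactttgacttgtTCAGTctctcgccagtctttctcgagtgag
MFS18, TATA box: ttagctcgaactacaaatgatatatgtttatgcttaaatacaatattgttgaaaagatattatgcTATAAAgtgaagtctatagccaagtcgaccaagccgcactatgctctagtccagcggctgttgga
puc, AP-1 site: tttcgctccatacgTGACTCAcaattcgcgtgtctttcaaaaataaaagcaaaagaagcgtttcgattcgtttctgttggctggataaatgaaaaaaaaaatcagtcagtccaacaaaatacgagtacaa

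In these promoters the summit lay on either side of the start. It lay 1 bp upstream at RpS10b, whose DRE begins at base -86, and 8 bp downstream at RpL37A, whose Motif 1 begins at base -10. At RpL24 it lay 15 bp downstream and at RpS7 43 bp downstream. At ttk, whose initiator begins at base 1, it lay 44 bp upstream. At wnd it lay 21 bp upstream, with overlapping GAGA matches from bases -3 and -1. At MFS18, whose TATA box begins at base -35, it lay 90 bp upstream.

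Core summits were spread about evenly over both sides of the start. Their median position was 2 bp downstream, with the middle 50% between 41 bp upstream and 41 bp downstream. Downstream summits made up 51.4% (95% interval 48.4 to 54.5; 530 of 1031) and upstream summits 48.3% (498 of 1031), and 3 lay on the start itself. The strongest 5703 summits of each replicate gave 51.0% downstream in replicate 2 and 52.8% in replicate 3, or 51.9% ± 1.29 (SD, n = 2). Within 10 bp of the start lay 13.9% of core summits, within 25 bp 30.9% and within 50 bp 60.0%. Summits thinned out on both sides of the core without a gap, so the 100 bp limit is a point on a slope. The 72 summits at 91 to 100 bp had a median signal of 198.2, and the 77 non-divergent summits in the next 10 bp had 207.0. At the limit itself, Map205 (signal 341.4) and vri (signal 336.7) lay inside at 100 bp, and CG9399 (signal 379.9) and RpS29 (signal 278.1) lay 1 bp outside.

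**Figure D1:**
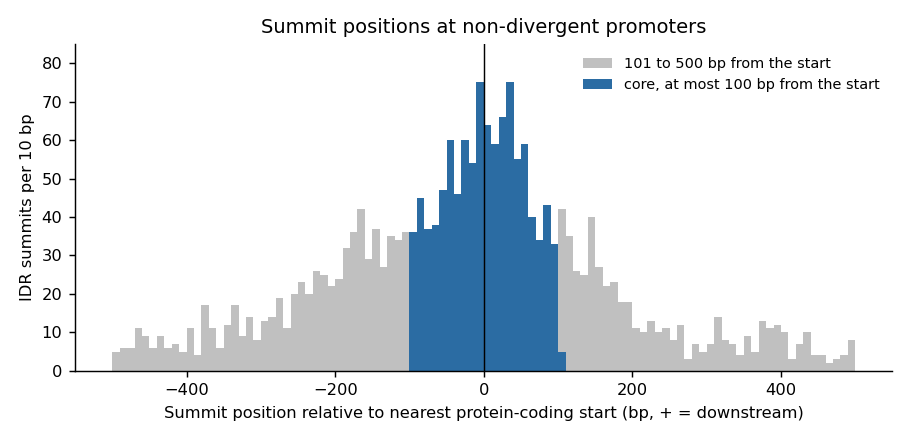
Positions of IDR summits relative to the nearest protein-coding start at non-divergent promoters, counted per 10 bp; the x axis is in bp with downstream positive. Core summits, in blue, have their median at 2 bp, and counts fall off on both sides into the grey bins.

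Replicate summits were matched only within 100 bp of an IDR summit, so the spacing of matched pairs was limited by that choice. Of the 1031 core summits, 970 had a summit within 100 bp in both replicate lists, with medians of 1 bp downstream in replicate 2 and 5 bp downstream in replicate 3. The replicate summits lay a median of 26 bp apart (middle 50%, 11 to 49.8 bp), and 80.4% (95% interval 77.8 to 82.8) lay on the same side of the start in both. Within 20 bp of each other lay 41.7% of the pairs. Median spacing was much the same elsewhere, at 23.5 bp beside divergent starts, 27 bp up to 500 bp away and 26 bp beyond. A noncoding or pseudogene start lay within 500 bp of 6.11% of core summits, and 4.56% had one on the other strand, so most had no annotated divergent start of another class either.

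In median signal core summits were close to the other IDR summits, and fewer of them were among the strongest. They had a median signal of 201.1 (middle 50%, 162.1 to 263.6), against 199.6 for all other IDR summits and 204.0 for core summits beside divergent starts. The strongest 10% of the IDR list held 6.31% of the core summits (95% interval 4.98 to 7.96). It held 13.9% of those beside divergent starts (10.5 to 18.1), 14.2% of those up to 500 bp away (12.4 to 16.1) and 8.92% of those farther away (7.947 to 9.998). Median signals in the replicates were 107.0 in replicate 2 and 103.5 in replicate 3 at the matched core summits. Replicate signals at the 970 summits had a Spearman rank correlation of 0.542 and a Pearson correlation of 0.639 on the log2 scale. This is a description, since these summits are not independent and had been selected for reproducibility.

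The strongest core summit was that of Ugalt, the transporter of UDP-galactose into the Golgi, with an IDR signal of 2488 and replicate signals of 1160 and 1337, at 33 bp upstream. Next came CG14100 with 2059 (replicates 803.5 and 1252, 95 bp upstream) and PNPase, the mitochondrial polynucleotide phosphorylase, with 1792 (725.8 and 1073, 81 bp downstream). These 3 stood above the other core summits in both replicates. Synj, a phosphoinositide phosphatase of synaptic vesicle recycling, had 1383 (replicates 697.3 and 678.0). CG32772 had 1243 (560.0 and 684.5) and hdly had 1157 (406.2 and 756.3). The phosphatase gene puc, which restrains Jun kinase, had 1036 (505.3 and 543.7) at 9 bp downstream. The paired replicate signals come from separate lists and are not compared with each other.

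The remaining genes of the 12 strongest summits belong to protein synthesis and metabolism. RpS4 had a signal of 935.0 (replicates 448.3 and 510.4), RpL24 had 852.7 (358.6 and 494.8) and RpS10b had 795.4 (387.0 and 406.1). Alg3, a mannosyltransferase of N-glycan assembly, had 897.2 (333.4 and 566.9), and Acadvl, an acyl-CoA dehydrogenase of very long chain fatty acids, had 843.6 (365.4 and 463.6). Ribosomal protein summits lay within 15 bp of the start here, and those of Alg3 and Acadvl at 73 bp upstream and 73 bp downstream.

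Ranks within the core summits differed most between replicates at miple2, NFAT and jim. miple2, a heparin-binding growth factor of the midkine family, had 232.1 in replicate 2 and 59.8 in replicate 3. The transcription factor gene NFAT had 51.0 and 173.6, and the zinc finger gene jim had 142.4 and 39.5. In the IDR list these 3 genes had signals between 222.1 and 285.2, above the core median.

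**Figure D2:**
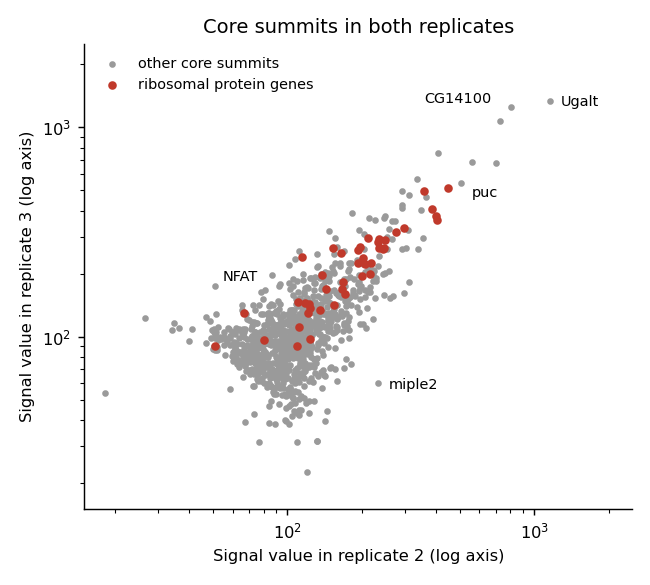
Signal of core summits in replicate 2 (x axis) and replicate 3 (y axis), both log axes in the authors' signal units, each point 1 summit matched in both replicates and ribosomal protein genes in red. Ugalt lies at 1160 and 1337, and the ribosomal protein genes lie from 50.98 to 448.3 in replicate 2 and from 89.9 to 510.4 in replicate 3.

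Most protein-coding genes had no core summit. Of 13945 protein-coding genes, 10799 had a non-divergent start, and 962 of these had a core summit within 100 bp of one (8.91%). Counted by distinct start, 1091 of 15109 were bound (7.22%), and with the relaxed pooled list 2488 of 10799 genes had a summit there (23.0%). The replicates alone gave 1020 genes in replicate 2 and 854 in replicate 3, or 8.68% ± 1.09 (SD, n = 2). They shared 589 genes, which were 57.8% of those in replicate 2 and 69.0% of those in replicate 3. Of the 962 bound genes, 59.9% were bound in both replicates alone and 4.26% in neither. Among the large arms the bound share ran from 7.84% on 2L to 9.83% on 2R, with 8.42% on X, and chromosome 4 had 7 of 74 genes bound.

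Bound genes were longer than genes not bound and had more starts, with a median of 2 against 1. Their median length was 7292 bp (middle 50%, 2877 to 21052 bp; 962 genes), against 2114 bp (1124 to 5214 bp; 9837 genes) for genes not bound. Annotated starts numbered 3 or more in 30.2% of bound genes (95% interval 27.3 to 33.1) and in 8.15% of the others (7.63 to 8.71). The median length of the first intron was 1076 bp against 113 bp, and 4.99% of bound genes had no intron against 17.4%. A gene with more starts offers more places for a summit, and its part in these shares was not tested. The 43 bound ribosomal protein genes were short, with a median length of 1445 bp, and 2.33% of them had no intron.

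Genes of the cytoplasmic ribosome were bound far above the background of 8.91%. Of 60 such genes with a non-divergent start, 43 had a core summit (71.7%, 95% interval 59.2 to 81.5). The large subunit had 25 of 35 (71.4%, with 23 in replicate 2 and 26 in replicate 3) and the small subunit 18 of 25 (72.0%, with 18 and 19). Of the 206 strongest core summits, 31 belonged to ribosomal protein genes. Summits whose nearest gene was of this class numbered 43. They had a median signal of 411.0 (140.3 to 935.0), against 198.1 for the other 988 core summits. The replicates gave medians of 192.8 against 105.8 in replicate 2 and 224.2 against 101.9 in replicate 3.

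Within the large subunit the leading summits were those of RpL24, RpL30 with 780.0 (replicates 398.7 and 376.7) and RpL31 with 771.5 (402.9 and 362.2). The weakest were RpL10 with 184.6 (80.5 and 96.4) and RpLP2, an acidic stalk protein, with 184.2 (66.6 and 129.5). In the small subunit RpS4 and RpS10b were followed by RpS28b with 621.3 (295.8 and 330.2). The weakest there was RpS5b with 140.3 (51.0 and 89.9). The weakest were chosen after their values were seen, and RpS27A shares its summit (signal 346.5) with Ip259, whose start was nearer.

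Summits of ribosomal protein genes sat close to and just past the start. Their median position was 22 bp downstream (middle 50%, 1 bp upstream to 34 bp downstream), with 22 bp in replicate 2 and 16 bp in replicate 3. Within 25 bp of the start lay 48.8% of them (95% interval 34.6 to 63.3), against 30.2% of the other core summits (27.4 to 33.1). Most of these were in the large subunit, where 17 of 25 summits lay within 25 bp, with 15 in replicate 2 and 16 in replicate 3. In the small subunit 4 of 18 did, with 4 in replicate 2 and 9 in replicate 3, so the gap between the subunits differed between replicates. By IDR position RpL24 at 15 bp, RpL30 at 7 bp, RpL39 at 7 bp and RpL37A at 8 bp downstream stand for the former. RpS23 at 38 bp, RpS6 at 52 bp and RpS15 at 61 bp downstream stand for the latter. Single replicates placed some of these otherwise. RpL24 lay 31 bp downstream in replicate 3, and RpL39 33 bp and RpL37A 28 bp downstream in replicate 2. RpS23 lay 12 bp downstream in replicate 3. RpL39, RpL37A, RpS23, RpS6 and RpS15 were chosen after their values were seen.

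The 17 ribosomal protein genes without a core summit fell into 2 kinds. An IDR summit lay outside the core but within 500 bp at 7 of them, among them at 1 bp beyond the limit of 100 bp from RpS29, 110 bp from RpS3, 156 bp from RpS24, 188 bp from RpL40, 477 bp from RpL36 and 486 bp from RpL28. The summits near RpL36 and RpL28 lay beside divergent starts. The other 10 had none within 1000 bp. Of these, RpL22-like, RpS28-like, RpS10a, RpL37-2 and RpL10Aa are named as copies of another ribosomal protein gene, and in each case the copy RpL22 (442.0), RpS28b (621.3), RpS10b (795.4), RpL37-1 (291.1) or RpL10Ab (249.4) was bound. In 5 of the 6 families with 2 or more non-divergent copies 1 copy was bound, and in the sixth both RpS5a (352.6) and RpS5b (140.3) were. RpL5, RpL15 and RpL38 lie in pericentric heterochromatin, and the nearest IDR summits were 367570, 4171812 and 1167561 bp away. How well reads can be placed at such repeats and copies was not tested. RpL21 and RpS30 complete the 10.

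Other genes of protein synthesis, and those of the proteasome, were bound less often than those of the cytoplasmic ribosome. Of 41 translation factor genes 10 were bound (24.4%, 95% interval 13.8 to 39.3), led by eEF1gamma with 789.6 (replicates 311.9 and 476.2), eEF2, the translocation factor, with 370.3 (179.0 and 191.8) and eEF1alpha1, which delivers aminoacyl-tRNA, with 320.1 (162.6 and 181.6). The summits of eEF1gamma, eEF2 and eEF1alpha1 lay within 27 bp of the start. Of 14 aminoacyl-tRNA synthetase genes 2 were bound, GluProRS with 213.6 and AlaRS with 140.3 (14.3%, 95% interval 4.01 to 39.9; 1 in replicate 2 and 2 in replicate 3). Of 20 mitochondrial ribosomal protein genes 0 were bound, which leaves a share of up to 16.1% by the Wilson interval. Of 14 proteasome genes 2 were bound, Prosbeta7 with 210.8 and Rpn1 with 145.4 (14.3%, 95% interval 4.01 to 39.9; 1 in each replicate). The intervals of these 3 lists reach across 8.91%.

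Ecdysone response genes, which carry the hormone signal of metamorphosis, were bound at 14 of 30 (46.7%, 95% interval 30.2 to 63.9), with 14 in replicate 2 and 13 in replicate 3. The nuclear receptor gene Eip75B led with 562.6 (replicates 252.5 and 300.5), followed by the bZIP gene vri with 336.7 (142.0 and 185.4) and the Ets factor gene Eip74EF with 321.6 (172.4 and 139.9). Their summits lay mostly upstream, unlike those of ribosomal protein genes. The 17 summits had median positions of 49 bp upstream in replicate 2 and 35 bp upstream in replicate 3, and 5 and 6 of them lay downstream. With 1 start per gene 7 of these genes were bound. Among the 14, usp (232.1) was counted through a summit whose nearest start is that of Actn.

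Signalling genes were also bound above the background, with replicates that differed. Lists were not matched in gene length or number of starts. Of 43 genes of the Notch, EGFR, Wingless and Dpp pathways 16 were bound (37.2%, 95% interval 24.4 to 52.1), with 22 in replicate 2 and 12 in replicate 3. The Notch coactivator gene mam led with 485.5 (replicates 310.6 and 182.3), followed by tkv, a Dpp receptor, with 275.7 (178.1 and 98.8) and rho, the protease that releases EGFR ligands, with 254.0 (118.7 and 137.0). The Notch ligand gene Delta had a core summit of 228.7 (117.6 and 110.8) but was not among the listed genes. Of 19 insulin and TOR pathway genes 7 were bound (36.8%, 95% interval 19.2 to 59.0; 9 and 6 in the replicates). These were led by Ilp6, the insulin-like peptide of the fat body, with 379.8 (163.9 and 217.1), the kinase gene Pdk1 with 372.4 (156.3 and 226.0) and the kinase gene Sik3 with 293.5 (148.4 and 144.9). Of 29 genes of the Hippo, JAK-STAT and JNK pathways 8 were bound, led by puc, the Fos gene kay with 303.1 (136.8 and 200.1) and the Hippo activator gene kibra with 249.3 (134.5 and 109.5). The genes puc and kay, both of the Jun kinase pathway, had IDR summits 9 bp downstream and 5 bp upstream of the start. In replicates 2 and 3 puc lay 1 and 27 bp downstream. For kay the position was 5 bp upstream in replicate 2 and 76 bp downstream in replicate 3.

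Stress genes were bound at similar rates. Of 35 heat shock and chaperone genes 10 were bound (28.6%, 95% interval 16.3 to 45.1), led by the endoplasmic reticulum chaperone gene Calr with 351.9 (replicates 186.6 and 158.3), DnaJ-1 with 328.2 (191.7 and 139.1) and the small heat shock gene Hsp26 with 310.9 (154.4 and 167.3). Of 29 oxidative stress genes 7 were bound (24.1%, 95% interval 12.2 to 42.1), led by the glutathione transferase genes GstE13 with 782.1 (290.2 and 495.4) and GstE12 with 373.2 (226.1 and 153.4). The third, Sesn with 356.0, shares a summit whose nearest start is that of CG46429. Another glutathione transferase gene, GstT1, had a core summit of 573.0 (182.9 and 389.2) but was not among the listed genes.

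Chromatin and metabolic lists varied. Of 44 genes for insulator, chromatin and GAGA-binding factors 9 were bound (20.5%, 95% interval 11.2 to 34.5), led by the BTB factor genes psq with 505.4 (replicates 195.6 and 323.1) and ttk with 452.0 (233.5 and 218.3). Trl followed with 261.5 (146.6 and 119.2) at a summit nearest to CG42507. With 1 start per gene 3 of the genes in this list were bound. Of 18 fatty acid and fat storage genes 5 were bound (27.8%, 95% interval 12.5 to 50.9; 6 in each replicate), with Lsd-2, a lipid droplet protein gene, at 170.5, AcCoAS at 166.5 and Hsl at 162.8. All 5 had signals below the core median of 201.1, and 0 were bound in the stronger part of the IDR list. Of 20 nucleotide synthesis genes 4 were bound, awd at 191.6, Prps at 170.8, Pfas at 162.7 and Ctps at 153.7. Ctps lies at the locus of the tag, where binding and extra copies of the tagged DNA cannot be told apart. The glycolysis list had 3 of 15 bound, with signals from 180.1 to 200.6. These were Mpcp2, a mitochondrial phosphate carrier gene and no glycolytic enzyme, Ald1, which encodes aldolase, and Pfrx, which encodes a regulator of glycolytic flux. The vacuolar ATPase had 4 of 23, led by Vha13 with 381.4, Vha100-2 with 219.5 and Vha68-2 with 185.8. The cell cycle list had 5 of 37, led by E2f1 with 261.2, CycG with 233.5 and CycH with 232.9, and the cell death and autophagy list had 3 of 23, which were Strica (248.8), egr (197.9) and Diap1 (196.9). The clock list had 3 of 12, vri, sgg (179.5) and CkIIbeta (138.5), and phospholipid synthesis 1 of 7, CG33116 (264.7). For phospholipid synthesis 9 list entries matched no annotated gene name and were not counted. Wilson intervals of the nucleotide, glycolysis, vacuolar ATPase, cell cycle, cell death, clock and phospholipid lists reach across 8.91%.

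Cuticle, chemoreceptor and P450 genes were nearly without core summits. None of 120 cuticle protein genes was bound (0.0%, 95% interval up to 3.10), nor any of 208 chemoreceptor and odorant-binding protein genes (up to 1.81), in the IDR list or in either replicate alone. Of 80 cytochrome P450 genes 1 was bound, Cyp6a17 (244.8), which had no matched summit in replicate 2 and 119.8 in replicate 3. Of 49 immune effector genes 1 was bound, the receptor gene PGRP-LC (200.6; replicates 102.2 and 106.1). That is 2.04% (0.361 to 10.7), an interval that reaches across 8.91%. Oxidative phosphorylation had 3 of 53 (5.66%, 95% interval 1.94 to 15.4; 3 in replicate 2 and 6 in replicate 3), ATPsynC (358.0), COX4 (166.1) and Cyt-c-p (137.2), and its interval reaches across 8.91% too. The relaxed list, with a summit at 23.0% of all genes, had one at 3 cuticle genes, 0 chemoreceptor genes, 7 P450 genes, 7 immune genes and 15 oxidative phosphorylation genes.

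**Figure D3:**
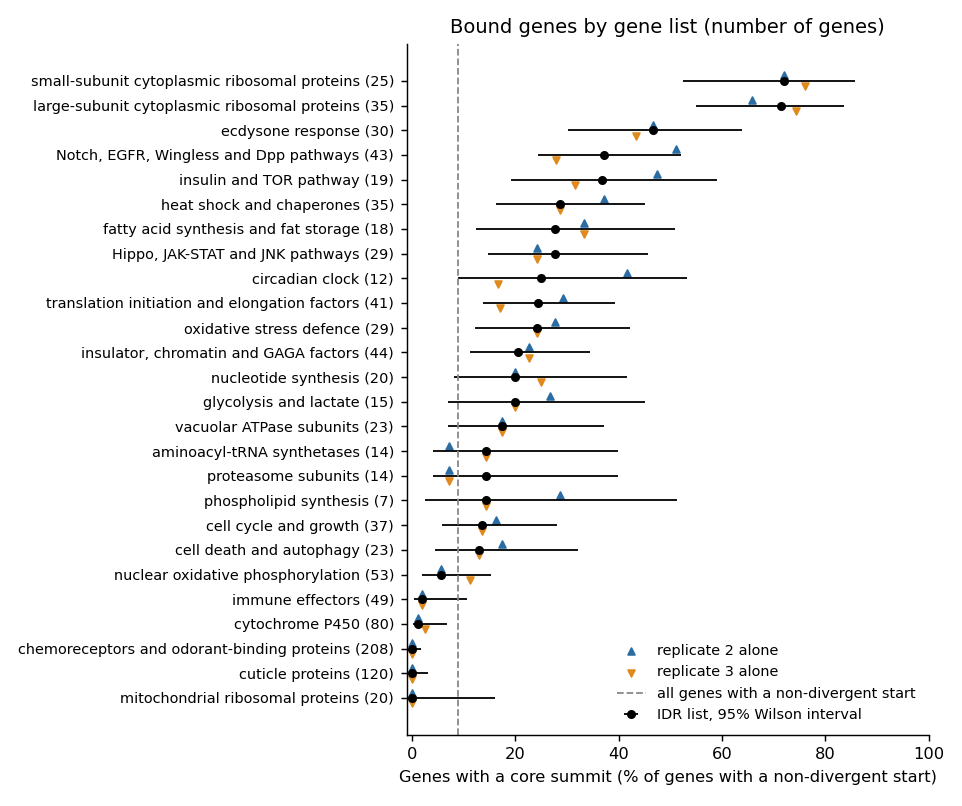
Share of genes with a core summit, in percent of the genes with a non-divergent start, for 26 gene lists with the number of genes in parentheses; points are the IDR list with 95% Wilson intervals and triangles the strongest 5703 summits of each replicate. Ribosomal protein genes lie above 71% and cuticle and chemoreceptor genes at 0, on either side of the dashed line at 8.91%.

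Sequence elements were counted once per bound gene, in the bases from 100 before to 50 after the start nearest to its strongest core summit (967 starts). The comparison was the canonical start of 9473 genes not bound. On the gene's strand only, the search used TATAAA beginning at bases -40 to -20, the initiator TCAGT at -5 to 1, the TCT initiator CTTTT or CTTTC at -2 to 3, and the DPE at 20 to 36. The DPE was spelled AGACGTG, and its G and T variants were spelled GGACGTG, then with the T alone AGTCGTG, then with both GGTCGTG. On both strands it used the DRE TATCGATA, Motif 1 GGTCACACT, the core promoter E-box CAGCTG, Motif 6 GTATNTTT, Motif 7 CATCNCTA, GAGAGAG for GAGA, CACACACA for CA repeats, TGANTCA for AP-1, and CACGTG and CAGGTAG. Over all 15109 non-divergent starts these were found in 7.73% (TATA), 7.92% (initiator), 1.46% (TCT), 1.37% (DPE), 4.19% (DRE), 2.86% (Motif 1), 9.74% (E-box), 6.41% (Motif 6), 2.77% (Motif 7), 4.6% (GAGA), 3.48% (CA), 2.88% (AP-1), 1.97% (CACGTG) and 0.900% (CAGGTAG). Matches on either strand may overlap one another. A match is a run of letters and not a site shown to be used.

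Of the elements found more often at bound starts, GAGA repeats had the largest difference in share. They were found at 13.96% of bound starts (95% interval 11.9 to 16.3; 135 of 967) and 3.18% of starts not bound (2.84 to 3.55), with 13.7% in replicate 2 and 13.9% in replicate 3. The initiator was found at 12.2% (10.3 to 14.4) against 7.16% (6.66 to 7.69), with 11.0% and 10.5% in the replicates. The DPE was found at 3.93% (2.88 to 5.35) against 1.14% (0.945 to 1.38), and the E-box at 14.1% (12.01 to 16.4) against 9.43% (8.86 to 10.03). CA repeats stood at 5.58% (4.31 to 7.22) against 2.46% (2.17 to 2.79) and Motif 1 at 5.48% (4.22 to 7.10) against 3.16% (2.82 to 3.53). The TCT initiator stood at 3.21% (2.27 to 4.51) against 1.29% (1.08 to 1.54). In each of these the Wilson intervals did not overlap.

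TATA boxes were found less often at bound starts, at 4.55% (95% interval 3.41 to 6.05) against 9.70% (9.12 to 10.3), with 4.48% in replicate 2 and 4.56% in replicate 3. Anywhere in the window, on either strand, the same letters were found at 10.6% against 25.6%. The DRE differed little, at 5.27% (4.03 to 6.87) against 4.85% (4.43 to 5.30), as did Motif 6 at 6.52% against 6.64%, Motif 7 at 3.62% against 3.02% and AP-1 sites at 2.79% against 3.02%. CACGTG stood at 1.66% against 2.22% and CAGGTAG at 0.414% against 0.897%, lower at bound starts but with intervals that overlapped. Base composition moved with these shares. The median GC content was 49.3% at bound starts and 42.0% at the others, and 49.3% in each replicate alone. Its part in the shares was not tested, neither for AT-rich elements nor for those found more often at bound starts.

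Ribosomal protein promoters held another set of elements. Of the 43, a DRE was found at 10 (23.3%, 95% interval 13.2 to 37.7), a TCT initiator by these letters at 8 (18.6%, 9.74 to 32.6) and Motif 6 at 8. A GAGA repeat was found at 1, and an initiator or a DPE at 0, which leaves a share of up to 8.20%. At the other 924 bound starts the DRE stood at 4.44% and GAGA at 14.5%. The median GC content of the ribosomal protein promoters was 46.0%.

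**Figure D4:**
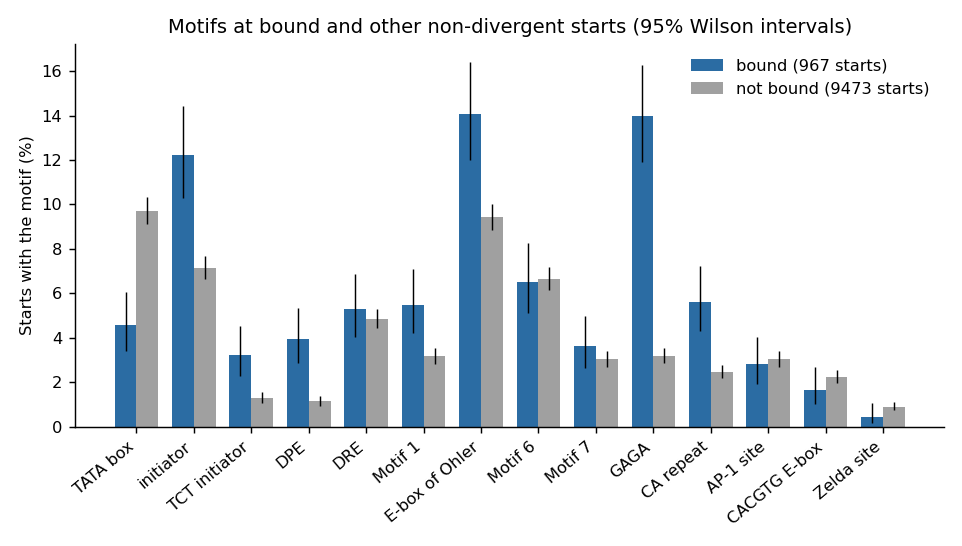
Share of starts with each element, in percent, at 967 bound starts (blue) and 9473 starts not bound (grey), with 95% Wilson intervals. GAGA stands at 13.96% against 3.18% and the TATA box at 4.55% against 9.70%.

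The position of the summit differed with the element present. At the 51 bound starts with a DRE the summit lay a median of 48 bp downstream (54 bp in replicate 2 and 43.5 bp in replicate 3 at matched summits), and 77.1% of matched summits lay downstream (95% interval 63.5 to 86.7; 37 of 48). At 53 starts with Motif 1 the median was 45 bp downstream (48.5 and 49 bp in the replicates) and 85.4% lay downstream (72.8 to 92.8). At 35 starts with Motif 7 it was 52 bp (52.5 and 54.5 bp), and at 63 starts with Motif 6 it was 31 bp (30 and 33.5 bp). Each of these groups had its median on the downstream side in both replicates. At 27 starts with an AP-1 site the median was 27 bp downstream (13 and 32 bp in the replicates) and 80% of 25 matched summits lay downstream (60.9 to 91.1). By replicate position 16 of these 25 lay downstream in replicate 2 and 22 in replicate 3. With a TATA box the median was 6 bp downstream (3 bp upstream and 9 bp downstream in the replicates) and with a DPE 8 bp (8 and 21.5 bp). Of matched summits 56.4% (40.98 to 70.7) and 58.3% (42.2 to 72.9) lay downstream there, with intervals that reach across 50%.

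With a GAGA repeat, an initiator or a CA repeat the summit lay upstream. The medians were 18 bp upstream for 135 starts with GAGA (15 and 7 bp upstream in the replicates), 13.5 bp upstream for 118 with an initiator (21 and 9 bp upstream) and 17.5 bp upstream for 54 with CA repeats (19.5 and 18 bp upstream). Of matched summits 36.6% (28.6 to 45.4), 38.7% (30.2 to 48.03) and 36% (24.1 to 49.9) lay downstream. Each of these medians had the same sign in both replicates. Over all 967 bound starts the median was 4 bp downstream (1.5 and 8 bp), and over the 353 with none of the elements 4 bp upstream.

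The DRE lay farther from the summit than the GAGA repeat. The DRE lay a median of 102.5 bp from the summit, on its upstream side, Motif 6 77.5 bp and Motif 1 73 bp, and 7.84% of starts with a DRE had it within 25 bp (95% interval 3.09 to 18.5). The GAGA repeat lay a median of 46 bp away, with 34.1% within 25 bp (26.6 to 42.4). Within 50 bp of the summit on either side, a DRE was found at 0.776% of core summits (0.394 to 1.52) and 4.94% of core summits beside divergent starts (3.06 to 7.87), and at 0.218% of summits up to 500 bp away and 0.0337% of those beyond. A GAGA repeat was found there at 9.02% (7.42 to 10.9) and 2.47% (1.26 to 4.80). Summits farther from starts held GAGA repeats at 6.83% up to 500 bp away and 5.35% beyond.

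**Figure D5:**
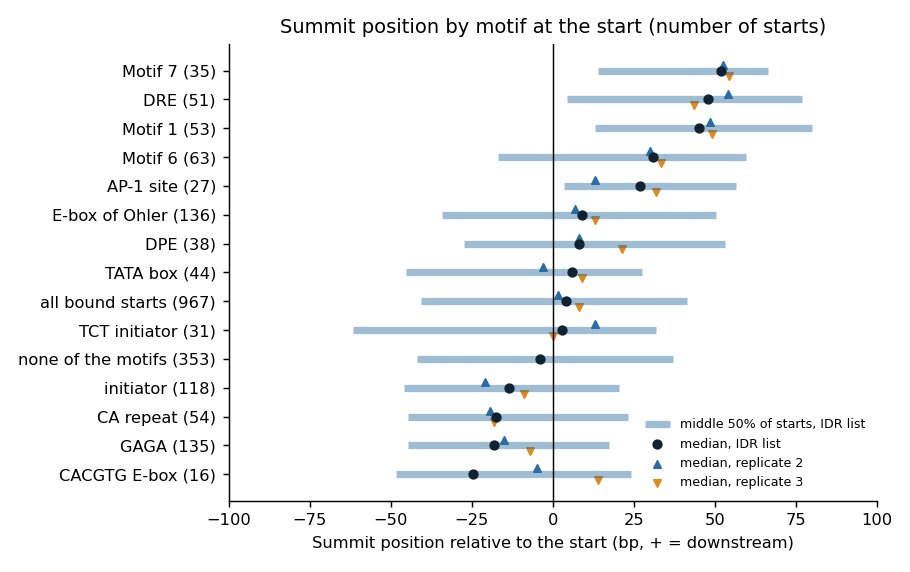
Summit position relative to the start, in bp with downstream positive, for bound starts grouped by the element they hold, with the number of starts in parentheses; dots are medians, bars the middle 50% of starts and triangles the medians of each replicate. Motif 7, DRE, Motif 1 and Motif 6 have medians from 31 to 52 bp, and GAGA, CA repeats and the initiator from -18 to -13.5 bp.

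Some genes were bound at several of their starts. Of 967 nearest genes, 908 had 1 core summit, 55 had 2, 3 had 3 and 1 had 4. The gene with 4 was Svil, encoding the actin-binding protein supervillin, with summits 9 bp upstream, 5 bp upstream, 2 bp downstream and 15 bp downstream of separate starts. Their signals were 183.5, 301.3, 137.4 and 200.4, with 99.9, 173.1, 98.6 and 105.0 in replicate 2 and 88.6, 130.1, 39.5 and 97.6 in replicate 3. All 4 lay within 15 bp of their start in the IDR list. The strongest of them lay 21 bp upstream in replicate 2 and 54 bp upstream in replicate 3. Eip75B, the nuclear receptor gene named above, had summits of 562.6, 274.2 and 251.9 at 3 starts. The cytoskeletal linker gene shot had 388.5, 206.7 and 151.8, and Pdk1 had 372.4, 268.6 and 202.6. More widely, 46.6% of core summits (95% interval 43.5 to 49.6) had another IDR summit in the same gene, 10.1% had 5 or more, and the nearest other IDR summit was a median of 3152 bp away.

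The locus of the tag had a weak core summit among strong peaks. Ctps, the CTP synthase gene, had a core summit 57 bp downstream of a start (chr3L:15097977-15098406) with a signal of 153.7 and replicate signals of 70.7 and 97.4, below the core median of 201.1. The strongest peak of the locus had a signal of 2008 and lay 103 bp upstream of CG45071, just outside the core. Other summits in Ctps reached signals of 1671 and 1566. Binding and extra copies of the tagged DNA cannot be told apart at this locus.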

How the data were processed

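The 2 libraries are biological replicates 2 and 3 of 1 group. The authors deposited narrowPeak lists on dm6 and dm3: a relaxed list per replicate, a relaxed list of the pooled replicates and the list that passed the IDR threshold, per the file headers and notes. Only dm6 lists were used. The signal of each peak is a score the authors deposited. The sources used here name no aligner or peak caller.

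Summits on X, 2L, 2R, 3L, 3R and 4 were set against starts of Ensembl release 115 (BDGP6, 6.54) with Python 3.11.15, pandas 2.3.3, NumPy 2.4.6 and SciPy 1.17.1. A gene was bound when a core summit lay within 100 bp of 1 of its non-divergent starts, and counts by nearest gene can differ from counts of bound genes. List entries that matched no annotated gene name were left out, so list shares cover matched genes only. Such entries numbered 9 for phospholipid synthesis, 6 for ecdysone response and 5 for oxidative stress. The fat storage list and the Notch, EGFR, Wingless and Dpp list had 4 each, and other lists fewer. For each replicate the strongest 5703 summits were taken. Replicate summits were matched within 100 bp. Intervals are 95% Wilson intervals and cover counting error only. No tests were made, as 1 group allows none. The steps were tested on simulated data.

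Named are the 12 strongest core summits, the 3 strongest bound genes of each of 26 lists, the 3 with the largest rank difference between replicates, the strongest holder of a motif off arm 2R, summits at the limit, the tagged locus and the genes with most core summits. Alternatives are given in the closing section. Members, lists and motifs were chosen with earlier results of these data known. The values of 1 gene are not reported here.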

Additional observations from a re-analysis of the deposited data

How the results depend on the processing

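Each main value was computed under 9 other settings. A distance limit of 50 bp gave a core share of 10.9%, 5.59% of genes bound and 3.51% of bound starts with a DRE, and 150 bp gave 23.9%, 11.6% and 5.90%. A divergent window of 250 bp gave a core share of 20.6% and a DRE share of 6.16%. A window of 1000 bp gave a core share of 15.03%, 47.7% of core summits downstream and a DRE share of 4.13%. With 1 start per gene the values were 12.7% core, 6.76% of genes, 55.3% downstream and 6.37% with a DRE. The stronger part of the IDR list gave 4.63% of genes, 47.0% downstream, a median signal of 261.3 and 6.0% with a DRE. The pooled list with 2 times as many summits gave 15.2% of genes, 54.9% downstream, a median signal of 149.4 and 6.11% with a DRE. Leaving out a replicate gave 15.8 to 19.1% core, 7.91 to 9.45% of genes, 51.0 to 52.8% downstream, a median signal of 104.0 to 107.9 and 5.03 to 5.16% with a DRE. The side of the start held by more summits changed with a window of 1000 bp and in the stronger part of the list, and the cause was not tested. Signals of different lists are on different scales.

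Of 104 counts of bound genes per list under other settings, 73 were within 1.5 times the reported count. With 1 start per gene 2 mitochondrial ribosomal protein genes were bound, in place of 0. Of 45 differences in motif share between bound and other starts, 41 kept their sign. The sign turned for the DRE without ribosomal protein genes, a setting chosen after seeing the data (-0.408 percentage points). Within 50 bp of the summit, against other IDR summits, it turned for the TCT initiator (-0.800), CA repeats (-0.324) and CACGTG (0.395). Without ribosomal protein genes summits still lay a median of 54 bp downstream with a DRE and 53 bp with Motif 1. No paired analysis was possible because the study has 1 group. Depth per library is unknown, so a missing summit does not show that a promoter was free of binding.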
